A study of Mus musculus with 6 samples.

Results

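The genes of the proteasome were examined in leukemia cells taken from 2 regions of mouse bone marrow. Members were the protein-coding genes of the count table whose symbol starts with Psma, Psmb, Psmc, Psmd, Psme, Psmf or Psmg. This gave 50 of 54532 genes, after 4 pseudogenes with such names were set aside. The 5 genes of the interferon-inducible immunoproteasome (Psmb8, Psmb9, Psmb10, Psme1 and Psme2) are described apart from the rest.

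The leukemia was driven by AE9a, a truncated splice form of the AML1-ETO fusion, brought by retrovirus into c-Kit+ marrow cells and passed on by serial transplantation, the first recipients being irradiated C57BL/6 females. Central bone marrow (CBM) cells were flushed out of femurs and tibias, and endosteal bone marrow (EBM) cells were then released from the same bones with collagenase I, so region and enzyme treatment coincide in every library and cannot be told apart. There were 3 libraries per region, all from C57BL/6 leukemia cells that were kept in IMDM with FBS around sorting, and the labels name no drug and no deletion. The labels give no age, and they do not say that the 3 libraries of a region came from separate mice, so the p-values measure the spread between these samples.

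The proteasome degrades proteins marked with ubiquitin chains. Its 20S core is a barrel of alpha rings, which gate the entry, around beta rings, which carry the proteolytic sites. The 19S cap adds ATPases that unfold the substrate and non-ATPase subunits that bind and remove ubiquitin, and core and cap together form the 26S proteasome. Under interferon, cells can build cores with the beta subunits Psmb8, Psmb9 and Psmb10 in place of Psmb5, Psmb6 and Psmb7, and cap them with the activator made of Psme1 and Psme2, which favours peptides for MHC class I display.

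Library totals ran from 17078883 to 19462964 counts in CBM and from 16436526 to 18413131 in EBM, and the members took 0.504% to 0.564% of each. Levels are given as CPM, the counts divided by the library total after TMM scaling, a count of 3 being worth 0.149 to 0.193 CPM. The factors were 1.03, 1.009 and 1.037 in CBM 1 to 3 and 0.985, 0.994 and 0.948 in EBM 1 to 3. Scaling thus lowered every CBM value and raised every EBM value. Of the 5 leukemic progenitor markers, Kit stood at 196 to 239 CPM, Myb at 268 to 352 and Runx1t1 at 20.5 to 41, while Cd34 ran from 1.16 to 16.4 and Mpo from 1.65 to 35.8. The 3 NK cell markers summed to at most 0.211 CPM and the 6 T cell markers to at most 1.06 CPM. The 9 macrophage markers summed to 5.9 to 10.1 CPM in CBM and 5.53 to 8.74 in EBM, the 5 B and plasma cell markers to 11.7 to 18.3 and 9.06 to 16.8 (Ms4a1 at 0), the 7 osteoblast and stroma markers to at most 1.61, the 4 endothelial markers to at most 3.16 (Emcn at 0) and the 3 dendritic markers to at most 0.557. CBM 2 held the highest neutrophil and erythroid sums. Its 6 neutrophil markers summed to 223 CPM, against 7.8 and 3.32 in CBM 1 and CBM 3 and 49, 160 and 34.3 in EBM 1 to 3. Its 6 erythroid markers summed to 5462 CPM, against 2136 to 3913 elsewhere. The 20 genes of a tissue-dissociation response summed to 14319, 10248 and 7822 CPM in CBM and 14705, 12798 and 14246 in EBM. Of the 19 genes of this list that were tested, edgeR called 0, against 0% of all genes. At an unadjusted p under 0.05 stood 4, with 3 higher and 1 lower in EBM, against 7.91% of all genes. DESeq2 called Hspa1a, Hspa1b and Dusp1, against 1.43% of all its genes. Hspa1b stood at 3.37 to 9.5 CPM in CBM and 50.3 to 112 in EBM, and Dusp1 at 595 to 1329 and 382 to 447. The part of this response in the member values was not tested. In bulk samples, fewer cells of a type and less RNA per cell cannot be told apart.

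Of the 50 members, 48 passed the filter on low counts and 2 did not. By the quasi-likelihood test of edgeR, 0 of the 48 passed an adjusted p of 0.05 between the regions, and so did 0% of the 13352 genes tested. DESeq2 also called 0 members, against 1.43% of its 12280 genes, and limma-voom called 0. At an unadjusted p under 0.05 stood 4 members, against 7.91% of all genes. All 4 (Psma6, Psmb4, Psmb6 and Psmd8) were higher in EBM, against 4.01% of all genes, and 0 were lower, against 3.9%. The fitted difference was positive for 43 members and negative for 5, against 50.4% positive over all genes, and its median was 0.14 on the log2 scale (EBM minus CBM), against 0.0017 over all genes. Members share libraries and normalisation, so this share is a description of 6 libraries and not a count of independent results.

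**Figure D1:**
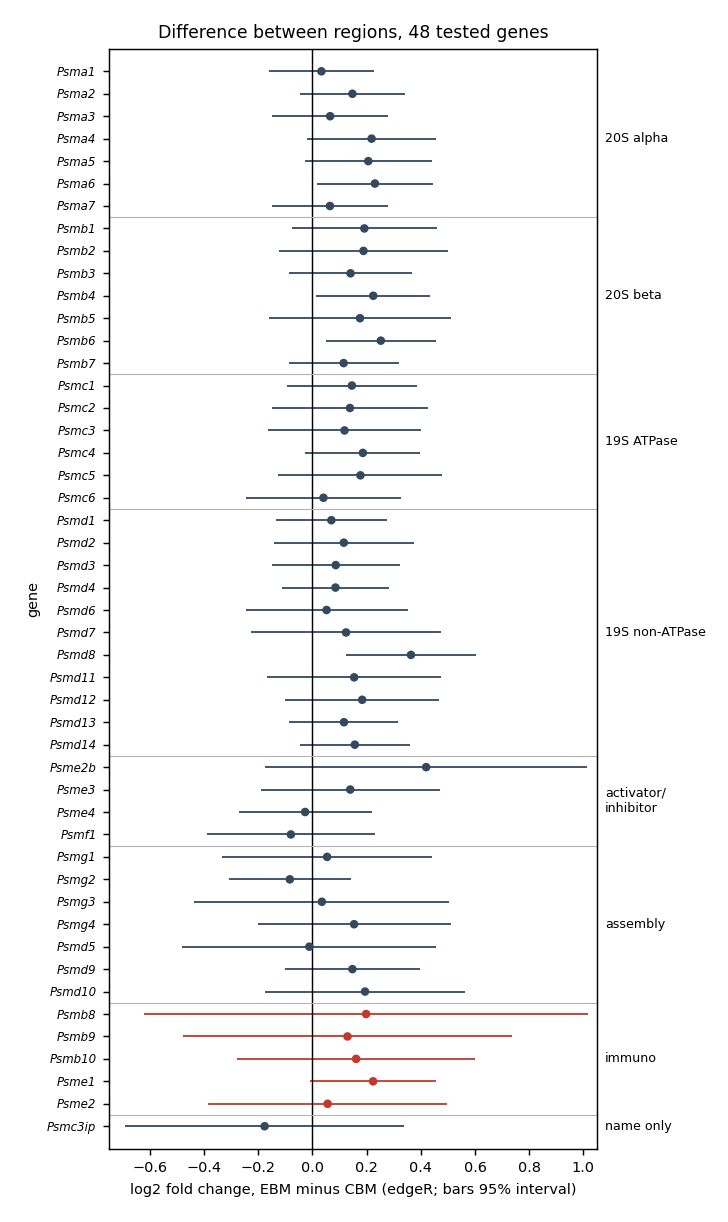
Fitted log2 difference between EBM and CBM (horizontal axis) for each of the 48 tested genes, grouped by role, with 95% intervals from edgeR. Points of the constitutive core and cap lie to the right of 0, between 0.03 and 0.36, and the intervals cross 0 in all but Psma6, Psmb4, Psmb6 and Psmd8; the widest interval of the immunoproteasome genes (red) is that of Psmb8, -0.62 to 1.02.

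All 31 constitutive subunits of core and cap had a positive difference, from 0.03 (Psma1) to 0.36 (Psmd8), with a median of 0.15. Every EBM library lay above every CBM library for 10 of the 31, against 7.47% of all genes, and below for 0, against 7.65%. The libraries were uneven within a region. CBM 1 held the lowest value for 23 of the 31 subunits, where 18.5% of all genes had their lowest value, and EBM 3 the highest for 26, against 23.2%. Without EBM 3 the median was 0.071, with 28 of 31 positive, and without CBM 1 it was 0.10, with 29 positive. Summed over the 31 genes, CBM 1 to 3 held 3726, 3886 and 4077 CPM and EBM 1 to 3 held 4207, 4124 and 4636 CPM. After TMM scaling the lowest EBM sum thus stood just above the highest CBM sum, and EBM 3 stood above all. This separation rests on the scaling. As a share of unscaled library totals, all 50 members took 0.504%, 0.505% and 0.550% in CBM 1 to 3 and 0.540%, 0.534% and 0.564% in EBM 1 to 3. There CBM 3 lay above EBM 1 and EBM 2. A fit without such scaling was not run.

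**Figure D2:**
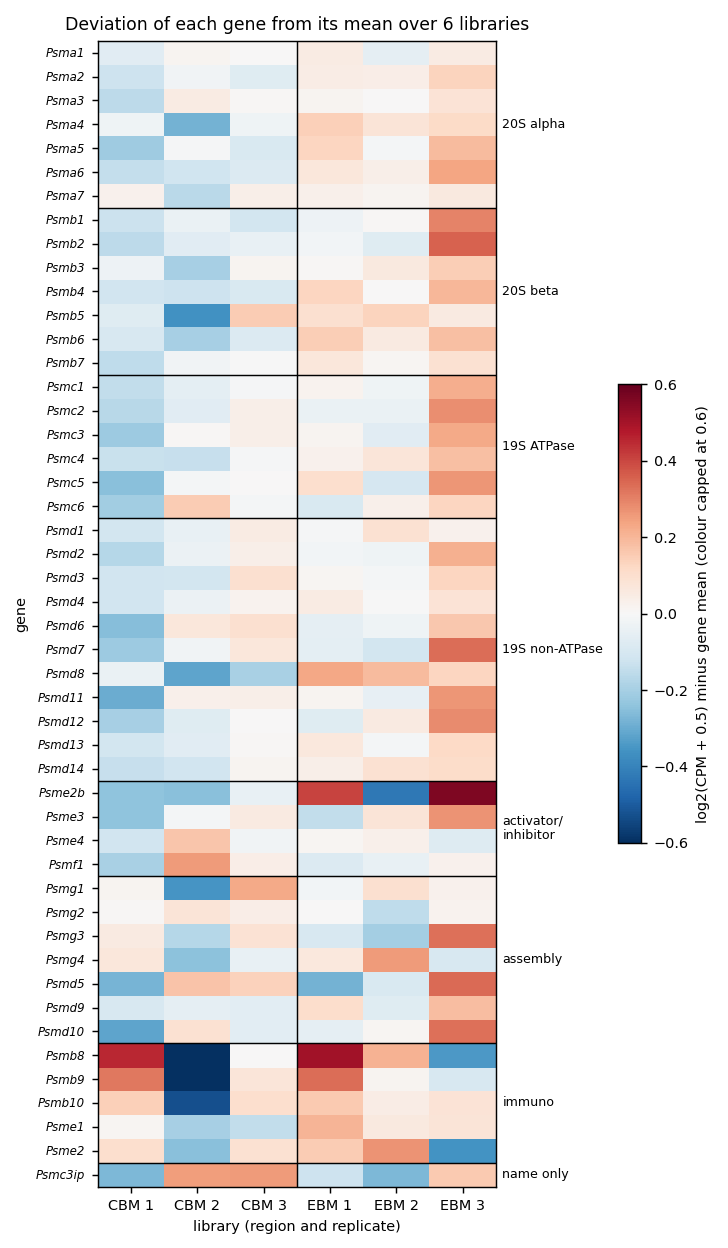
Deviation of each tested gene from its own mean over the 6 libraries, in log2(CPM + 0.5), for CBM 1 to 3 and EBM 1 to 3, with genes grouped by role and the colour capped at 0.6. In the core and cap rows CBM 1 is mostly blue and EBM 3 mostly red, while the immunoproteasome rows are blue in CBM 2 and, for Psmb8 and Psmb9, red in CBM 1 and EBM 1.

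The spread between replicates was smaller for the constitutive subunits than for the immunoproteasome genes. The median standard deviation within a region was 0.10 on the log2 scale for the 31 constitutive subunits and 0.27 for the 5 immunoproteasome genes, against 0.21 over all genes tested. Spread on this scale also depends on the count level, and no comparison at matched level was made. Per kilobase of the exon length in the count table, mean levels among the 31 ran from 14.7 CPM per kb for Psmd11, a lid subunit, to 115 for Psma6. For most members the length equalled the exon bases of all transcripts annotated in GENCODE M21. A gene with long rare transcripts therefore has a low value per kb. The length was shorter for Psmb8 (2736 against 3381 bases), Psmb9 (3659 against 3660), Psmg2 (1059 against 1738) and Psma8 (1693 against 2494).

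In the alpha ring, all 7 genes had a positive difference, with a median of 0.15. For 3 of them (Psma2, Psma4 and Psma6) every EBM library lay above CBM, against 7.47% of all genes. EBM 3 was the highest library for 6 of the 7, against 23.2% of all genes. Psma6 (ENSMUSG00000021024, chr12:55384222-55418454, plus strand) measured 128, 130 and 134 CPM in CBM 1 to 3 and 148, 145 and 167 CPM in EBM 1 to 3. Its groups did not overlap, and EBM 3 was the highest. The log2 difference was 0.23 (SE 0.09, unadjusted p = 0.0393, edgeR adjusted p = 0.596). Psma4, with 148, 124 and 149 CPM in CBM and 167, 159 and 163 in EBM, had a difference of 0.22 (SE 0.10, edgeR adjusted p = 0.667). For Psma1, Psma3 and Psma7 the regions overlapped, with differences of 0.03, 0.07 and 0.06.

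In the beta ring, 7 of 7 genes again had a positive difference, with a median of 0.19. For 4 of them (Psmb1, Psmb4, Psmb6 and Psmb7) every EBM library lay above CBM, against 7.47% of all genes. Here too EBM 3 was the highest library for 6 of the 7, against 23.2% of all genes. Psmb6 (ENSMUSG00000018286, chr11:70525367-70527858, plus strand), which carries the caspase-like site, stood at 118, 110 and 119 CPM in CBM and 140, 131 and 143 in EBM. This was 1.19-fold higher by the means, 116 ± 5.05 against 138 ± 6.29 CPM (SD, n = 3). Its log2 difference was 0.25 (SE 0.09, unadjusted p = 0.0217, edgeR adjusted p = 0.54). Psmb4 (ENSMUSG00000005779, chr3:94884093-94886961, minus strand), a subunit without a proteolytic site, stood at 176, 175 and 179 CPM in CBM and 209, 191 and 219 in EBM. The CBM libraries were close together, and all EBM libraries lay above them (log2 difference 0.22, SE 0.09, unadjusted p = 0.0396, edgeR adjusted p = 0.596).

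The other catalytic genes differed less clearly. Psmb5, with the chymotrypsin-like site, gave 53.5, 43.8 and 62.7 CPM in CBM and 60.3, 61.8 and 58.5 in EBM, so CBM 3 was the highest of the 6 and the regions overlapped (0.18, SE 0.14, edgeR adjusted p = 0.853). Psmb7, with the trypsin-like site, gave 83.7, 91.9 and 92.9 CPM in CBM and 97.7, 94 and 99.1 in EBM, with a log2 difference of 0.12 (SE 0.09, edgeR adjusted p = 0.828). Psmb1 and Psmb2 took much of their difference from EBM 3, where they reached 199 and 163 CPM, against at most 162 and 126 CPM in the other libraries.

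Among the 6 ATPases of the cap, all differences were positive, from 0.04 (Psmc6) to 0.19 (Psmc4). Psmc4 had the smallest p of this ring. It measured 99.1, 98.6 and 108 CPM in CBM and 110, 114 and 123 in EBM, without overlap (SE 0.09, unadjusted p = 0.0764, edgeR adjusted p = 0.678). In the remaining 5 the regions overlapped, CBM 1 being the lowest of all libraries in each.

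Among the 11 non-ATPase subunits, the median difference was 0.12 and all 11 were positive. Psmd8 (ENSMUSG00000030591, chr7:29174188-29180701, minus strand), a subunit of the lid, had the smallest p of all members and ranked 285 of 13352 genes. The CBM libraries gave 170, 140 and 152 CPM and the EBM libraries 205, 199 and 191, a gap between all libraries of the regions. By the means it was 1.29-fold higher in EBM, 198 ± 6.95 against 154 ± 14.8 CPM (SD, n = 3). The log2 difference was 0.36 (SE 0.10, 95% interval 0.13 to 0.60, unadjusted p = 0.00885), with an adjusted p of 0.414 in edgeR and 0.196 in DESeq2, and 0.196 to 0.985 over all alternatives run. Its lowest EBM library was EBM 3 and its lowest of all CBM 2, whereas in the non-ATPase group EBM 3 was the highest for 9 of 11 genes and CBM 1 the lowest for 10. Leaving out any 1 library kept its difference between 0.30 and 0.44.

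Psmd14, the deubiquitinase of the lid, was the other gene of this group without overlap, at 97.1, 98.9 and 108 CPM in CBM and 110, 114 and 116 in EBM (log2 difference 0.16, SE 0.09, edgeR adjusted p = 0.725). Psmd2, a scaffold of the cap base, had the highest count level of the constitutive genes, 268, 295 and 310 CPM in CBM and 299, 297 and 350 in EBM. Its regions overlapped (0.12, SE 0.11). Psmd4, a ubiquitin receptor, differed by 0.09 and Psmd6, a lid subunit, by 0.05, with overlap in both.

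The 250 bases before the start sites of the 4 members at an unadjusted p under 0.05 were taken from RefSeq promoter windows (GRCm38.p6). That threshold was met by 7.91% of all genes, so the 4 genes are shown only as examples of upstream sequence. Windows were found for 42 of the 50 members, 45 windows in all, of which 27 belong to 25 of the 31 constitutive subunits. Capitals mark matches to the motifs named in the next paragraph, and the windows are read 5′ to 3′ on the gene's strand at chr12:55383972-55384221 (plus, Psma6), chr3:94886959-94887208 (minus, Psmb4), chr11:70525107-70525356 (plus, Psmb6) and chr7:29180674-29180923 (minus, Psmd8).
Psma6: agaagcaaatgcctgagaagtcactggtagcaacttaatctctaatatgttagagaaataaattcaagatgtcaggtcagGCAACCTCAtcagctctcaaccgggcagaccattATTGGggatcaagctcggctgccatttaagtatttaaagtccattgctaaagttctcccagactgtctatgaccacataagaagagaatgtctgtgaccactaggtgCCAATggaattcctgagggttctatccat
Psmb4: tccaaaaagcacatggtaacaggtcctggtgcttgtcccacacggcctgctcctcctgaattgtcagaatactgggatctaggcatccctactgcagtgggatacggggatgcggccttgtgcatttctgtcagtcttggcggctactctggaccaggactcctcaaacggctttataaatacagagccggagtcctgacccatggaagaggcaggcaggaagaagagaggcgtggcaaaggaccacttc
Psmb6: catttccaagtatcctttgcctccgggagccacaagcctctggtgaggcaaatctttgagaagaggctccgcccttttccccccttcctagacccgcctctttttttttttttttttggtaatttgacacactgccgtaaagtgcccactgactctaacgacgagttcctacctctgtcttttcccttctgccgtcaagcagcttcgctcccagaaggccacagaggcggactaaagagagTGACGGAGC
Psmd8: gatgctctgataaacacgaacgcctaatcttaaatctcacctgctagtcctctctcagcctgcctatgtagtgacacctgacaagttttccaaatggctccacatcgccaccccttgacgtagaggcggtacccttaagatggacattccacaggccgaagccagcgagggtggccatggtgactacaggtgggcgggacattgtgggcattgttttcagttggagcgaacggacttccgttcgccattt

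The letters searched, on both strands, were TGANNNNGC for the antioxidant response element bound by the Nfe2l1 and Nfe2l2 family, TGANTCAGC for the form of it with an AP-1 core, which also matches the first, CCAAT for NF-Y, GAANNTTC for a heat shock pair, GAAA and GAAA parted by NN for the interferon-stimulated response element, TTCNNNGAA for the interferon gamma-activated site and GGGA and TTTCC parted by N for NF-kappaB. The Psma6 window shown held 1 match to TGANNNNGC and 2 to CCAAT, a second RefSeq window of Psma6 (chr12:55398575-55398824, plus strand, not shown) held 1 further match to TGANNNNGC, and Psmb6 held 1 match to TGANNNNGC directly before the start site. Psmb4 and Psmd8 held none of these letters. Over the windows of the constitutive subunits, 37% held TGANNNNGC and 37% CCAAT, against 35.2% and 33.8% of all 32851 windows. TGANTCAGC was in 0 member windows and in 1.02% of all windows. The letters of the interferon-stimulated element were in 6.67% of the 45 member windows, against 2.98% of all, and in 0 of 6 immunoproteasome windows. TTCNNNGAA was in 4.44% of member windows, against 7.02%, and in 1 of 6 immunoproteasome windows, that of Psmb8. GAANNTTC was in 6.67% of member windows, against 6.69%, and the NF-kappaB letters in 0, against 0.356%. A match is a description of letters and not of binding.

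The activators and the inhibitor outside the immunoproteasome showed no shared direction. Psme3, which forms a nuclear activator ring, was among the most abundant members per kb (108 CPM per kb on average) and gave 266, 313 and 328 CPM in CBM and 285, 333 and 381 in EBM, with overlap (log2 difference 0.14, SE 0.14). Psme4, a large single-chain activator, differed by -0.03 and Psmf1, the proteasome inhibitor, by -0.08, both with CBM 2 as the highest library. Psme2b is taken up with Psme2.

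Assembly factors had a median difference of 0.05, with 5 of 7 positive and 0 at an unadjusted p under 0.05. Psmd9, which helps to assemble the ATPase ring, had the smallest p of these, with 39.8, 41.1 and 40.8 CPM in CBM and 45.9, 40.5 and 48.5 in EBM (0.15, SE 0.10, edgeR adjusted p = 0.81). EBM 2 lay among the CBM libraries. Psmg1 and Psmg2, which pair to guide alpha ring assembly, gave 0.05 and -0.08. Psmg3 was the lowest tested member per kb, 3.49 CPM per kb on average. Whether assembly factors differ from the subunits themselves was not tested.

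The immunoproteasome genes were all expressed. The 3 catalytic genes Psmb8, Psmb9 and Psmb10 averaged 29.2, 10.4 and 27.4 CPM per kb, against 63.1, 67.8 and 27.2 for their counterparts Psmb5, Psmb6 and Psmb7. The exon lengths behind these averages were 2736, 3659 and 1705 bases, against 899, 1872 and 3421 for the counterparts. The longest protein-coding transcripts were 1628, 1352 and 1311 bases, against 899, 798 and 1160. Comparisons of level between these genes therefore depend on the length chosen. All 5 fitted differences between regions were positive, from 0.06 to 0.22, against 50.4% positive over all genes. None stood at an unadjusted p under 0.05, and 4 of the 5 overlapped between regions. In the other, Psme1, every EBM library lay above CBM, against 7.47% of all genes.

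**Figure D3:**
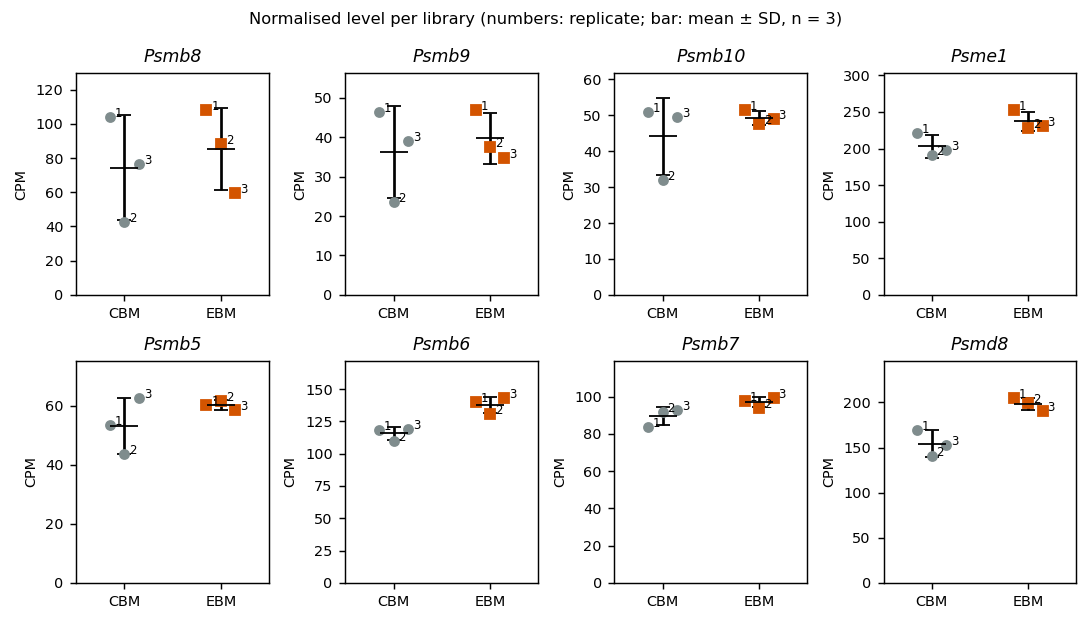
CPM per library, on linear axes from 0, of 3 immunoproteasome beta genes, Psme1, the counterpart beta genes Psmb5, Psmb6 and Psmb7, and Psmd8, with the mean and SD of 3 libraries per region and replicate numbers beside the points. Psmb8 spans 42.9 to 104 CPM within CBM and 59.9 to 108 within EBM, while Psmb6 and Psmd8 lie in bands that do not overlap between regions.

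Psmb8 (ENSMUSG00000024338, chr17:34197721-34201454, plus strand) measured 104, 42.9 and 76.3 CPM in CBM and 108, 88.1 and 59.9 in EBM. The spread within each region exceeded the difference between them (log2 difference 0.20, SE 0.34, 95% interval -0.62 to 1.02, edgeR adjusted p = 0.972). Psmb9 (ENSMUSG00000096727, chr17:34181988-34187764, minus strand) measured 46.3, 23.6 and 39 CPM in CBM and 46.9, 37.5 and 34.7 in EBM, again with CBM 2 lowest and EBM 1 highest (0.13, SE 0.25, edgeR adjusted p = 0.976). Psmb10 (ENSMUSG00000031897, chr8:105935735-105938444, minus strand) gave 51, 31.9 and 49.5 CPM in CBM and 51.4, 47.7 and 49 in EBM. The other 5 libraries lay between 47.7 and 51.4 CPM, and CBM 2 stood below them (0.16, SE 0.19, edgeR adjusted p = 0.925).

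CBM 2 was thus the lowest library for 4 of the 5 immunoproteasome genes, where 20.6% of all genes had their lowest value, and EBM 1 the highest for 4, against 15.8%. Without CBM 2 the difference stayed positive for 1 gene of 5, Psme1, and those of Psmb8, Psmb9, Psmb10 and Psme2 were -0.08, -0.10, -0.02 and -0.05. Without EBM 1 it was positive for 3 of 5. CBM 2 was also the library with the highest neutrophil and erythroid marker sums. EBM 2, with the next highest neutrophil sum (160 CPM, against 223 in CBM 2), was the lowest library for 0 of the 5 genes. The part of these cells in the low values was not tested.

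Set against its counterpart on the scale of CPM per kb, Psmb8 made up 39%, 24.3% and 28.6% of the sum of Psmb8 and Psmb5 in CBM 1 to 3, and 37.1%, 31.9% and 25.2% in EBM 1 to 3. The means of 30.7% ± 7.55 and 31.4% ± 5.95 (SD, n = 3) differed by less than the spread. Psmb9 took 16.7%, 9.88% and 14.3% of its sum with Psmb6 in CBM 1 to 3 and 14.6%, 12.8% and 11% in EBM 1 to 3. Psmb10 took 55%, 41.1% and 51.7% of its sum with Psmb7 in CBM, and 51.4%, 50.4% and 49.8% in EBM. In all 3 pairs the share was lowest in CBM 2 and highest in CBM 1, so the range within CBM covered that within EBM. The size of a share depends on the exon lengths used, while its order over the libraries does not.

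Psme1 (ENSMUSG00000022216, chr14:55578123-55581529, plus strand), of the activator ring, had a smaller spread than the catalytic genes. It measured 221, 191 and 198 CPM in CBM and 252, 228 and 231 in EBM, with every EBM library above every CBM library. The means were 203 ± 15.6 and 237 ± 13.3 CPM (SD, n = 3), with a log2 difference of 0.22 (SE 0.10, unadjusted p = 0.0566, edgeR adjusted p = 0.644). Its partner Psme2 (ENSMUSG00000079197, chr14:55587441-55591113, minus strand) gave 87.3, 68.2 and 86.6 CPM in CBM and 90.3, 98 and 63.4 in EBM, with EBM 3 as the lowest library (0.06, SE 0.19, edgeR adjusted p = 0.985).

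Psme2 shares much of its annotated sequence with Psme2b (ENSMUSG00000078153, chr11:48945354-48946190, minus strand), a gene of 1 exon. Their counts may therefore not be independent, and whether reads of one gene were counted for the other was not tested. Over the 717 coding bases the 2 annotated sequences differ at 5 positions, and 59.3% of all 50-base windows of the Psme2 transcript also occur in Psme2b or another transcript (GENCODE M21). The 60-base coding stretch with the most differences, coding bases 487 to 546 in both, is shown to make this visible, with the 3 differing bases in capitals.
Psme2: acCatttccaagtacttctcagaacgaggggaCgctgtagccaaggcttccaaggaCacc
Psme2b: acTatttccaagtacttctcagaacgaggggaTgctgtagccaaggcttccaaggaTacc

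Psme2b measured 37.2, 37 and 42.8 CPM in CBM and 58.7, 32.7 and 65.3 in EBM, with the largest fitted difference of the tested members, 0.42 (SE 0.25, unadjusted p = 0.138, edgeR adjusted p = 0.747). EBM 3, lowest for Psme2, was highest for Psme2b, and EBM 2 was highest for Psme2 and lowest for Psme2b. The sums of both were closer together, at 125, 105 and 129 CPM in CBM and 149, 131 and 129 in EBM. Their log2 difference was 0.19 (SE 0.11, unadjusted p = 0.151, edgeR adjusted p = 0.761), and CBM 3 and EBM 3 overlapped.

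**Figure D4:**
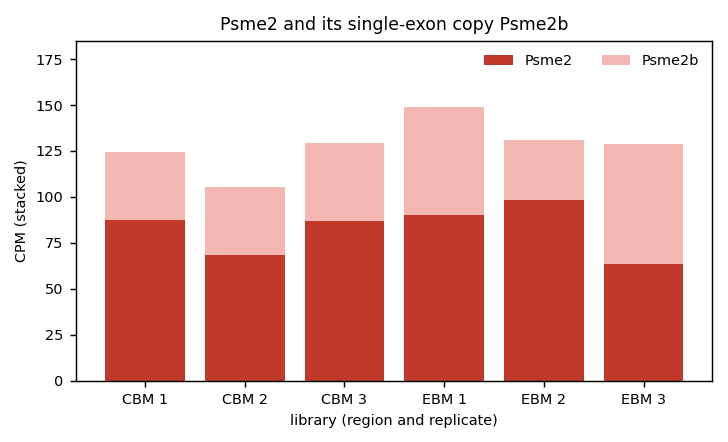
CPM of Psme2 (dark) and Psme2b (light), stacked for each of the 6 libraries. The stacked height runs from 105 to 149 CPM, while the Psme2b share is largest in EBM 3, where it makes up 65.3 of 129 CPM.

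Shared sequence also touched other members. More than 10% of the 50-base windows were shared with other transcripts in 12 of the 50, among them Psmb5 (57.1%), Psmb3 (55.8%) and Psma5 (54.5%), and 28 shared none. Psmd8, Psma6 and Psmb4 shared none and Psmb6 shared 2.67%. How the counting treated such reads is not given in the sources used here. Exons of another gene overlapped 15 of the members, for example Tap1 on the opposite strand over 5.79% of the exon bases of Psmb9, and it is not stated that counting used strand.

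The members that failed the filter are known for narrow expression elsewhere. Psma8, a testis subunit, had 1 count, in CBM 3, and Psmb11, of thymic cortical epithelium, had 1 count, in EBM 2. At these depths, counts of 3 or fewer allow no statement on a difference. Psmc3ip, a recombination factor that shares only the name, stood at 7.68 to 11.3 CPM with a log2 difference of -0.18 (SE 0.22).

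Genes around the proteasome outside the naming rule were taken from lists. Of 11 partners measured, 9 had a positive and 2 a negative difference (50.4% positive over all genes), with a median of 0.13 and 0 at an unadjusted p under 0.05. Sem1, a small lid subunit, gave 74.8, 79.4 and 76.1 CPM in CBM and 92.3, 77.1 and 95.9 in EBM (0.20, SE 0.11, edgeR adjusted p = 0.709). Adrm1, a ubiquitin receptor of the cap, differed by 0.18 (edgeR adjusted p = 0.776). Pomp, the chaperone of core maturation, had 99.4 to 104 CPM in CBM and 103 to 117 in EBM.

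The Nfe2l1 route restores proteasome genes when proteolysis is limiting. Of 10 genes listed around it, 7 differences were positive and 3 negative, against 50.4% positive over all genes. At an unadjusted p under 0.05 stood 2 (Nfe2l2 and Maff), against 7.91% of all genes. The list mixes genes of different roles, so these signs give no direction for the route. Nfe2l1 itself gave 81.3, 67.6 and 76.4 CPM in CBM and 88.5, 80.1 and 89.9 in EBM, with a difference of 0.20 (edgeR adjusted p = 0.709). Nfe2l2, the related oxidative stress factor, gave 85.4, 95.9 and 73.5 CPM in CBM and 115, 112 and 130 in EBM, without overlap (0.49, unadjusted p = 0.00595, edgeR adjusted p = 0.361). Maff, a small Maf partner, gave 50.4, 21.4 and 23.6 CPM in CBM and 66.6, 82.2 and 56.7 in EBM (1.11, unadjusted p = 0.015, edgeR adjusted p = 0.479).

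Of 15 genes of ubiquitin supply and substrate delivery, 12 differences were positive and 3 negative (50.4% positive over all genes), with a median of 0.13 and 0 at an unadjusted p under 0.05. Ubb, a polyubiquitin gene, ran from 657 to 944 CPM in CBM and from 892 to 1340.4 in EBM (0.42, edgeR adjusted p = 0.668), with EBM 2 below CBM 1. Faf1, a ubiquitin adaptor, differed by 0.21 (edgeR adjusted p = 0.672), with 54.1, 60.6 and 60.7 CPM in CBM and 62.8, 69.6 and 70.1 in EBM.

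Among 9 interferon and class I genes, 7 differences were positive and 2 negative, and 2 genes stood at an unadjusted p under 0.05, against the same 50.4% and 7.91%. Irf1, an interferon-regulated factor known to act on immunoproteasome genes, gave 16.6, 9.16 and 7.69 CPM in CBM and 31.5, 26.8 and 27.6 in EBM. Its log2 difference was 1.36, with an adjusted p of 0.275 in edgeR and 0.00107 in DESeq2, and 0.00107 to 0.917 over all alternatives run. Tapbp, which holds the peptide transporter to class I molecules, differed by 0.26 (unadjusted p = 0.0394, edgeR adjusted p = 0.596). Tap1 and Tap2, the transporter genes interleaved with Psmb9 and Psmb8, gave 89.7, 75.2 and 80.4 CPM and 72, 61.7 and 65.4 CPM in CBM, and 88.8, 77.7 and 95.1 CPM and 71.3, 64.3 and 68.3 CPM in EBM. Their CBM 2 values were lowest too, but by a smaller margin than those of Psmb8.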

How the data were processed

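RNA-seq of 3 CBM and 3 EBM libraries (rRNA-depleted RNA, directional kit, paired-end reads) was analysed from the count table deposited by the authors, which gives raw read counts per gene for each library. The submitters' processing notes name HISAT2 2.0.5 and mm10; the counting tool and its use of strand are not given in the sources used here. The members and gene lists were chosen with earlier results of these data known. Genes were named by a rule: all immunoproteasome genes and their counterparts, the gene of smallest p in each role, every member at an unadjusted p under 0.05, and the 2 genes of smallest p in each list. Other genes are given as examples chosen after their values were seen.

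In R 4.3.3, edgeR 4.0.16 was run with filterByExpr, TMM factors and the quasi-likelihood test without a replicate block, with Benjamini-Hochberg adjustment over 13352 genes at 0.05. DESeq2 1.42.0 and limma-voom (limma 3.58.1) were alternatives, and the scripts were tested on simulated data. Floors of 3 counts cover counting error only. Gene positions in the deposited table equalled those of GENCODE M21 (GRCm38) for 48 of 50 members. Of the listed symbols, Shfm1, Paaf1, AI314180 and Ufd1l had no row. Shfm1, AI314180 and Ufd1l are older symbols of Sem1, Ecpas and Ufd1, which were listed too and had rows.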

Additional observations from a re-analysis of the deposited data

How the results depend on the processing

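No member passed an adjusted p of 0.05 under any alternative run, which covered DESeq2, limma-voom, other size factors, other filters, gene length correction, the replicate block, thinning and leaving out each library. The number of members higher at an unadjusted p was 4 and became 2 with DESeq2, 2 with upper-quartile factors, 2 with every gene of at least 1 count, 1 with gene length correction and 1 with the replicate block and length correction, and ran from 1 to 5 when 1 library was left out, with 1 without CBM 2, without EBM 1 or without EBM 3 and 2 without CBM 3. Numbers over all genes past the adjusted threshold were 176 with DESeq2, 40 with every gene of at least 1 count and 1 with length correction, against 0, and 0 to 0 with a library left out. Of the genes in the lists around the proteasome, 1 (Irf1) passed with DESeq2, against 1.43% of all its genes. In the dissociation list Hspa1a, Hspa1b and Dusp1 passed with DESeq2. Leaving out 1 library gave 28 to 31 constitutive subunits with a positive difference and a median of 0.071 to 0.18, a median over all members of 0.069 to 0.18 (each lowest without EBM 3), and 1 to 5 positive immunoproteasome genes. The counts of positive subunits and immunoproteasome genes, the subunit median, the alternatives for members outside the naming rule and the sum of Psme2 and Psme2b were added after the data were seen.

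The sign turned in 25 of 897 gene values, in 13 genes, 21 of them when a library was left out. Outside those, 4 values turned, all near 0: Psma1 log2FC (the log2 difference, EBM minus CBM) was -0.00076 and Psmg3 log2FC -0.00184 with upper-quartile factors, Psmd5 log2FC was 0.017 with length correction, and thinning gave Psmg3 -0.0198. The cause was not tested. With 1 library left out the ranges of the log2 difference that crossed 0 were Psmc6 -0.047 to 0.13, Psmd6 -0.051 to 0.12, Psme4 -0.087 to 0.057, Psmf1 -0.19 to 0.0403, Psmg1 -0.0897 to 0.20, Psmg3 -0.16 to 0.14, Psmd5 -0.22 to 0.12, Psmb8 -0.079 to 0.52, Psmb9 -0.10 to 0.34, Psmb10 -0.025 to 0.28, Psme2 -0.074 to 0.21 and Psmd7 -0.039 to 0.20.

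The study names an unpaired test, and the labels do not say that libraries of one number share a mouse, so the numbers were not taken as pairs. Same-numbered libraries of the regions correlated in their deviations by 0.68, -0.20 and 0.20, and not every library correlated best with its own number. Deviations from the mean of 3 libraries force some negative correlations, so these values cannot decide the pairing. With the replicate block, 5 members were higher at an unadjusted p and 0 passed the adjusted one.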
